A study of Mus musculus with 29 samples.

Results

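The epidermal growth factor (EGF) family was examined in colonic RNA of mice with and without colitis. The 10 members, chosen by gene symbol and each matched to 1 Ensembl identifier among the 54532 genes counted, were the 7 ligands Areg, Ereg, Hbegf, Tgfa, Btc, Epgn and Egf and the 3 receptors Egfr, Erbb2 and Erbb3. RNA-seq libraries came from colon segments of 29 mice in 9 groups. Per the labels, untreated Balb/C mice (WT control, n = 3) served as controls for Balb/C mice given 3% DSS in drinking water for 5 days and culled on day 10 (n = 3), 3 mg DNBS in 50% ethanol rectally (n = 3), or an IL10 blocking antibody (IL-10 blockade, n = 4, with 750 µg of an antibody to the IL-10 receptor and culling after 4 weeks in the protocol). Untreated C57BL/6 Rag1-/- mice (Rag1 control, n = 3) served as controls for C57BL/6 Rag1-/- mice that received naive CD4+ T cells (TCT, n = 3, 500000 cells, culled after 6 to 8 weeks) or 50 µg of agonistic anti-CD40 antibody (n = 3, culled after 7 days). Untreated Balb/C Rag2-/- mice (Rag2 control, n = 3) served as controls for Balb/C Tbx21-/- x Rag2-/- mice (TRUC, n = 4), which develop colitis without treatment. Mice of the Rag1 control, TCT, anti-CD40, Rag2 control and TRUC groups therefore lacked their own T and B cells by genotype, and in TCT the T cells were those transferred. Ages are not given in the labels. The study's text describes the IL-10 model as Il10-/- mice, gives the DSS mice as C57BL/6, and names other culling times for DSS and TCT, and the protocol calls the T-cell recipients Rag2-/-. Strains, genotypes and times are given here as the labels and their protocol have them.

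EGF family ligands are made as membrane-anchored precursors, and the metalloproteases ADAM17 and ADAM10 release them from the cell surface. Released ligand binds EGFR, which pairs with itself or with ERBB2, a receptor that binds no ligand of its own, or ERBB3, which has little kinase activity and binds neuregulins, and these pairs signal through the RAS to MAP kinase cascade and PI3 kinase. In the colon this signalling is known for its part in epithelial proliferation and in the repair of the mucosa after injury, with ligands made by epithelium and by immune and stromal cells.

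The genes of 4 of the 7 ligands are neighbours on mouse chromosome 5 (GRCm38, positions from GENCODE M21), and all 4 code for protein. Epgn spans 91027464 to 91035215, Ereg 91074622 to 91093646 and Areg 91139599 to 91148432 on the plus strand, and Btc spans 91357261 to 91402994 on the minus strand. The neutrophil chemokine genes Cxcl5, Cxcl3, Cxcl1 and Cxcl2 lie on the same side of Epgn, with Mthfd2l between Cxcl2 and Epgn, ending 6.1 kb from the start of Epgn. Egf lies on chromosome 3 (129677565 to 129755316, minus strand), Tgfa on chromosome 6 (86195223 to 86275719, plus strand), Egfr on chromosome 11 (16752203 to 16918158, plus strand), Erbb2 also on chromosome 11 (98412470 to 98437716, plus strand) and Erbb3 on chromosome 10 (128567523 to 128589652, minus strand). The promoter windows of RefSeq (GRCm38.p6, 250 bases before to 50 after the start) are shown for 3 genes described below, the neighbours Areg and Epgn, called higher in 3 and 4 models, and Egf, called lower in 5. Each is written 5′ to 3′ on the strand of the gene, and capitals mark a cyclic AMP response element (TGACGTCA) or a TATA box (TATAAA), searched on both strands together with the AP-1 motif TGANTCA and the STAT motif TTCNNNGAA.
Areg, chr5:91139349-91139648, plus strand: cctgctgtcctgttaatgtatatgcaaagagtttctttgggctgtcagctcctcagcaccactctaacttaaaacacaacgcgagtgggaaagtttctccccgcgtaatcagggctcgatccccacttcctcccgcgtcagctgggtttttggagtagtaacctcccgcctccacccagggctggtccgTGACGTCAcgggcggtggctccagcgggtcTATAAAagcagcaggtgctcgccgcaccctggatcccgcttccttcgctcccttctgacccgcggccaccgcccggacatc
Epgn, chr5:91027267-91027566, plus strand: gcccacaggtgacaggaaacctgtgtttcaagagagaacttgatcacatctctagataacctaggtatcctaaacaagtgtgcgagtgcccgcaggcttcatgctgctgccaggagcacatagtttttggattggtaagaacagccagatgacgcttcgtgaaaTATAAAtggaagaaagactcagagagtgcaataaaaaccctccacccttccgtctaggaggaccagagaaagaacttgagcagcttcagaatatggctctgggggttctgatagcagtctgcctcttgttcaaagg
Egf, chr3:129755273-129755572, minus strand: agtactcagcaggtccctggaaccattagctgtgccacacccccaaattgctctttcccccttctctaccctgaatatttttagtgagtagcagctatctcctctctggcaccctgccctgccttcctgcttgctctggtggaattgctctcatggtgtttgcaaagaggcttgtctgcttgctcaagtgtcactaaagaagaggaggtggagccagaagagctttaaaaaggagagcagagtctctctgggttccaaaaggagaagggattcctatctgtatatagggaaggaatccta
The Areg window holds the response element 61 bases and a TATA box 31 bases before the start, and the Epgn window a TATA box 86 bases before it. These distances are from the RefSeq start, which for Epgn lies inside the span given above from GENCODE. The Egf window holds none of the 4 motifs. Of all 32851 promoter windows, 1.79% hold TGACGTCA, 13.6% TATAAA, 7.81% TGANTCA and 8.3% TTCNNNGAA. A window was found for 7 of the members, and these letters describe the windows and no binding.

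Total counts per library ran from 10725564 to 14977094 (median 12287039). Levels are given as normalised counts (CPM, each count scaled by the size of its library) on the TMM scale, on which 3 counts, the upper limit that a count of 0 allows, correspond to 0.179 to 0.313 CPM, and comparisons are edgeR quasi-likelihood tests with Benjamini-Hochberg adjustment over the 18616 genes tested, called at an adjusted p under 0.05. Nothing states whether mice of a group came from separate litters or cages, so p-values measure the spread between these mice. The genotype genes went against some labels. Rag2 had 6 to 20 counts in the Rag1 controls and 48 to 99 in anti-CD40, as in the groups labelled Rag2-/- (15 to 94), but none in TCT, whereas Rag1 had 20 to 33 counts in TCT and at most 4 in every other library. Tbx21 had 26 to 52 counts in the libraries labelled Tbx21-/- x Rag2-/- and 1 to 7 in the Rag2 controls. Il10, which is not deleted under the antibody label, had 61 to 111 counts in IL-10 blockade and 1 to 4 in the WT controls. These Il10 counts do not go against that label. Reads of a gene do not show whether its transcript is intact. The comparison of TCT with the libraries labelled Rag1 control may therefore also be one of genotypes, which cannot be told apart from the transfer. The members in TCT are also given against the WT controls, which are Balb/C mice with their own lymphocytes, so that this comparison crosses strain and genotype. Group names below stand for the libraries so labelled. DSS mouse 8 and DNBS mouse 16 had the highest Areg of their groups and stood apart for several members. Results of members and named genes that rest on them are given without them, while medians and called shares of the gene lists include them. In RNA from whole tissue, fewer cells of a type and less RNA per cell cannot be told apart.

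All 10 members passed the filter on low counts and were tested in each comparison. In TRUC 4 members were higher, against 22.4% of all genes tested, and 3 lower, against 23.4%. DSS had 5 higher and 3 lower members, where 17.7% of all genes were higher and 16.3% lower. IL-10 blockade had 5 higher members and 1 lower, beside 27.2% and 26.1% of all genes. TCT had 1 higher and 1 lower, beside 16.1% and 14%, and anti-CD40 had 2 higher and 1 lower, beside 10.9% and 10.7%. In DNBS, where edgeR called 3.95% of all genes higher and 2.21% lower, it called 0 of the 10 members. An unadjusted edgeR p under 0.05 was found for 4 of them (Areg, Ereg, Egf and Egfr). The share of all genes at that unadjusted p is not given here. DESeq2 called 3 members in DNBS, beside 1877 of the 16746 genes it tested. Across the 6 comparisons the median log2 fold change of all genes lay between -0.03 and 0.02, and that of the 7 ligands was 1.49 in DSS, 1.14 in TRUC, 0.74 in IL-10 blockade, 0.66 in DNBS, 0.59 in anti-CD40 and 0.31 in TCT. The 3 receptors had medians of -1.25 in DSS, -0.76 in TRUC, -0.54 in TCT, -0.25 in DNBS, -0.20 in IL-10 blockade and 0.07 in anti-CD40. Under upper quartile scaling the median of all genes was -0.14 in TRUC and -0.18 in IL-10 blockade, and the higher share of all called genes went from 48.8% to 39.4% in TRUC, from 51.0% to 38.4% in IL-10 blockade and from 64.1% to 51.0% in DNBS, while no called member changed direction. DSS, DNBS and IL-10 blockade share their control mice, as do TCT and anti-CD40, so their values are not independent of each other.

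**Figure D1:**
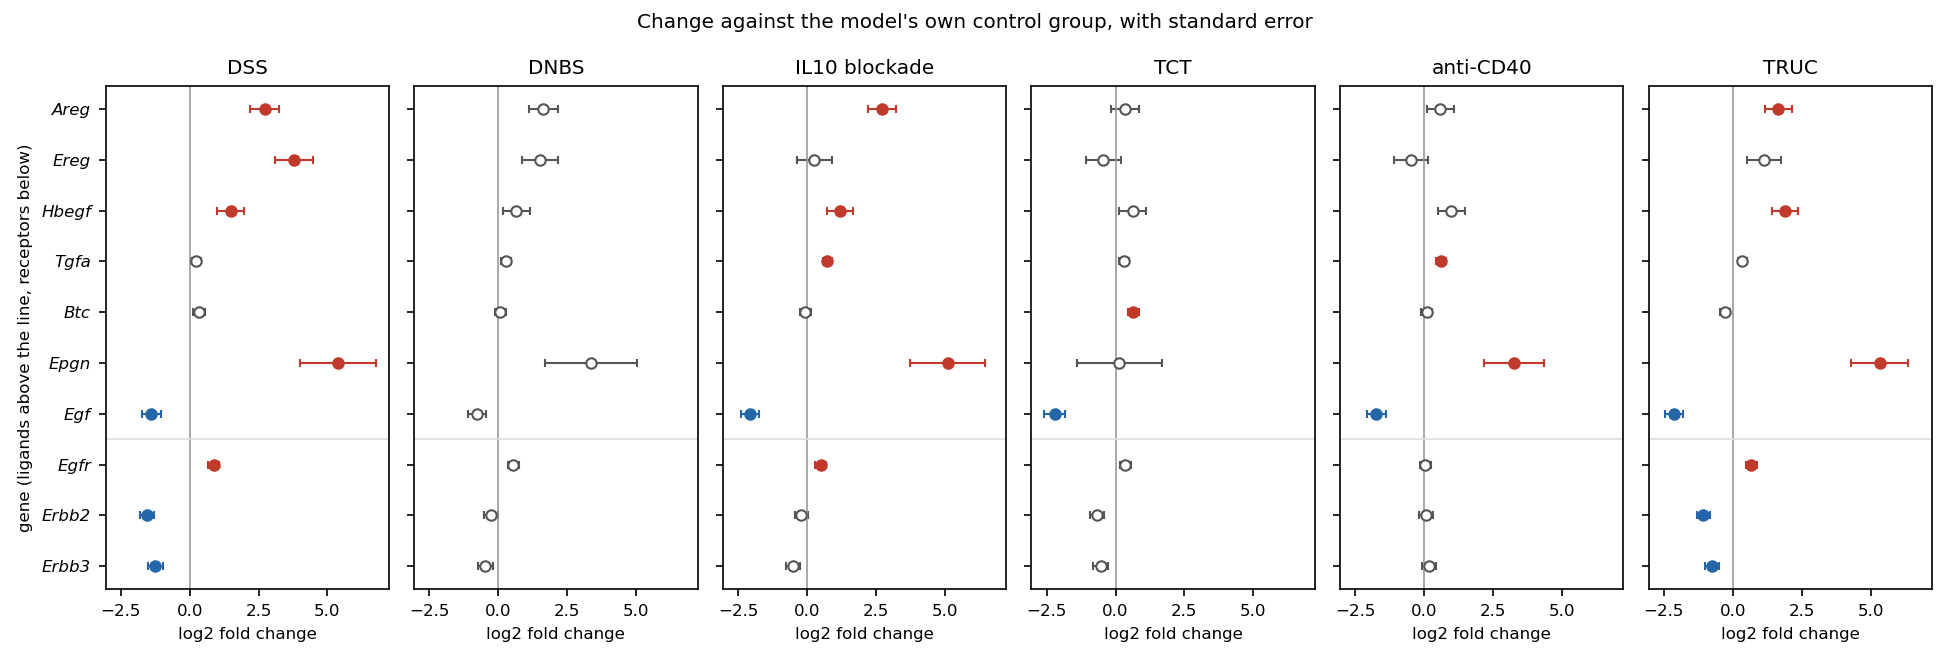
Log2 fold change of each member (rows) against the model's own control group in the 6 models (panels), with bars for the standard error. Filled points passed an adjusted p of 0.05 in edgeR's quasi-likelihood test, red for higher and blue for lower, and open points did not. Egf lies left of 0 in every panel and is filled in 5 of them, and no point is filled in DNBS.

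Areg, which encodes amphiregulin, a ligand of EGFR made by epithelium, type 2 innate lymphoid cells and regulatory T cells, was raised in DSS, IL-10 blockade and TRUC. In the WT controls it was at 7.31, 6.92 and 15.2 CPM, against 44.3, 34.8 and 114 CPM in DSS and 48.4, 84.4, 53.3 and 72.6 CPM in IL-10 blockade. All 7 of these colitis mice lay above the controls. The rise was 6.59-fold in DSS (log2 fold change 2.72, SE 0.54, adjusted p = 0.000473) and 6.62-fold in IL-10 blockade (2.73, SE 0.52, adjusted p = 0.000158). Without DSS mouse 8 the log2 fold change in DSS was 2.02 (adjusted p = 0.00711 by edgeR). TRUC mice had 52.7, 35.7, 57.4 and 49.6 CPM, and the Rag2 controls 9.29, 29.4 and 8.00 CPM. Rag2 control mouse 2 was the only control near the TRUC range, and the groups did not overlap. The log2 fold change of 1.65 (SE 0.49, edgeR adjusted p = 0.0088) became 2.50 without that mouse (adjusted p = 0.00135) and lost its call without Rag2 control mouse 1 (1.39, adjusted p = 0.055) or 4 (1.33, adjusted p = 0.0571). DNBS mice had 14.1, 19.3 and 57.7 CPM, the first within the control range. Their log2 fold change was 1.63 (SE 0.52, edgeR adjusted p = 0.0621), 1.98 without DNBS mouse 11 (adjusted p = 0.0199) and 0.78 with neither DNBS mouse 16 nor DSS mouse 8 in the fit (adjusted p = 0.361).

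The Rag1 controls stood higher for Areg than the other controls, at 18.6, 26.9 and 21.9 CPM. TCT mice had 31.2, 32.6 and 21.9 CPM and anti-CD40 mice 28.3, 50.7 and 22.8 CPM, and both overlapped these controls. The log2 fold changes were 0.35 (SE 0.50, edgeR adjusted p = 0.647) and 0.59 (SE 0.50, edgeR adjusted p = 0.425). Against the WT controls, the log2 fold change of TCT was 1.55 (SE 0.52, edgeR adjusted p = 0.0277), a comparison that also crosses strain and genotype. Ordered by mean CPM of Areg the groups ran from IL-10 blockade (64.7 ± 16.8, SD, n = 4) and DSS (64.4 ± 43.4, SD, n = 3) through TRUC (48.8 ± 9.36, SD, n = 4), anti-CD40 (33.9 ± 14.8), DNBS (30.4 ± 23.8), TCT (28.6 ± 5.81), the Rag1 controls (22.5 ± 4.18) and the Rag2 controls (15.6 ± 12.0) to the WT controls (9.80 ± 4.65, SD, n = 3 each). Of the neighbours in this order, TRUC and anti-CD40 and TCT and the Rag1 controls lay further apart than the larger SD of the pair, and the others did not.

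Ereg, which encodes epiregulin, a ligand of EGFR and ERBB4, was raised in DSS alone among the calls. WT controls had 5.48, 4.92 and 6.56 CPM and DSS mice 21.4, 27.9 and 184 CPM. Every DSS mouse was above every control, and mouse 8 was far above the other two. The rise was 13.8-fold (log2 fold change 3.78, SE 0.68, edgeR adjusted p = 0.000199), and 2.13 on the log2 scale without DSS mouse 8 (adjusted p = 0.00476). In that mouse the 6 neutrophil markers summed to 2444 CPM and the 5 macrophage markers to 1423 CPM. DSS mice 5 and 6 had 500 and 757 CPM of the neutrophil and 490 and 573 CPM of the macrophage markers. TRUC mice had 1535 to 2098 and 676 to 865 CPM of them, and all but TRUC mouse 4 had Ereg at 6.41 to 7.74 CPM. The part of these markers in the level of Ereg was not tested. IL-10 blockade, in which Areg rose by a like amount, had Ereg at 5.39, 4.67, 5.92 and 11.4 CPM, overlapping the controls (log2 fold change 0.27, SE 0.62, edgeR adjusted p = 0.734). The difference between IL-10 blockade and DSS in Ereg was -3.51 on the log2 scale (SE 0.60, edgeR adjusted p = 4.79e-05), and -1.86 without DSS mouse 8 (adjusted p = 0.00279). For Areg the same difference was 0.01 (SE 0.46, edgeR adjusted p = 0.996). DNBS mice had 10.7, 16.3 and 21.6 CPM of Ereg, all above the controls, with a log2 fold change of 1.51 that was not called (SE 0.64, edgeR adjusted p = 0.148). In TRUC, mouse 4 had 32.1 CPM and the others 6.41, 7.74 and 6.92 CPM, beside 4.87, 6.35 and 6.72 CPM in the Rag2 controls (log2 fold change 1.14, SE 0.61, edgeR adjusted p = 0.132), and 0.23 without mouse 4. TCT (7.96 to 12.2 CPM) and anti-CD40 (7.46 to 11.2 CPM) overlapped the Rag1 controls (7.62 to 16.7 CPM). Reads of Ereg share 141 exon bases with the antisense gene Gm19610, which had a mean count of 12.3, and whether the counting used strand is not stated in the sources used here.

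Epgn, which encodes epigen, a ligand of EGFR known from stratified epithelium, was nearly absent from control colon and called higher in 4 of the 6 models. Control libraries held 0 to 3 counts each, in total 1 in the WT, 5 in the Rag1 and 4 in the Rag2 controls. TRUC mice had 3.83, 1.07, 7.05 and 6.75 CPM (12 to 83 counts), the highest of any group. IL-10 blockade mice had 0.337, 1.45, 2.49 and 0.418 CPM, DSS mice 0.377, 0.342 and 3.75 CPM and anti-CD40 mice 0.657, 2.40 and 1.00 CPM. Every mouse of these 4 models lay above every mouse of its control group. The ratio of group levels, with a 95% interval for counting error only, was 43.9 in TRUC (16.9 to 162, edgeR adjusted p = 0.000247), 54.4 in DSS (9.38 to 2184, adjusted p = 0.00404), 48.2 in IL-10 blockade (8.27 to 1940, adjusted p = 0.00351) and 10.1 in anti-CD40 (4.07 to 32.6, adjusted p = 0.0353). DNBS mice had 0.239, 0.155 and 0.682 CPM, a ratio of 13.7 (2.08 to 577) that was not called (edgeR adjusted p = 0.218). TCT, at 0.175, 0.171 and 0.0926 CPM, had a ratio of 1.11 (0.254 to 4.80). The call in DSS was lost without DSS mouse 8 (edgeR adjusted p = 0.102) and when the 2 groups were fitted alone (adjusted p = 0.051), and that in anti-CD40 without anti-CD40 mouse 7 (adjusted p = 0.188) or any of the 3 Rag1 controls (adjusted p = 0.0741, 0.0747 and 0.113). The calls in TRUC and IL-10 blockade held with each mouse left out. Markers of squamous epithelium, of the kind found at the anorectal junction, were set beside Epgn. They were the keratins Krt4, Krt5, Krt13 and Krt14, the transcription factor Trp63 and the adhesion gene Dsg3. They summed to 31.3 to 61.0 CPM in TRUC against 4.25 to 8.60 CPM in the Rag2 controls (2 of 6 called higher), to 10.4 to 28.4 CPM in DSS against 4.18 to 5.92 CPM in the WT controls (2 of 6 called higher), and to 22.7 to 474 CPM in DNBS (4 of 6). DNBS mouse 11, with the 474 CPM, had only 4 counts of Epgn. In IL-10 blockade they summed to 2.19 to 11.2 CPM (1 of 6 called higher) and in anti-CD40 to 5.38 to 7.71 CPM against 3.18 to 5.67 CPM in the Rag1 controls (0 of 6 called). Within TRUC, mice 2 to 5 had sums of 56.5, 61.0, 31.3 and 34.6 CPM in that order. Mouse 3, with the highest sum, had the least Epgn, and mouse 4, with the lowest, had the most. In DSS, mouse 8 was the highest for both. The part of these markers in the level of Epgn was not tested.

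**Figure D2:**
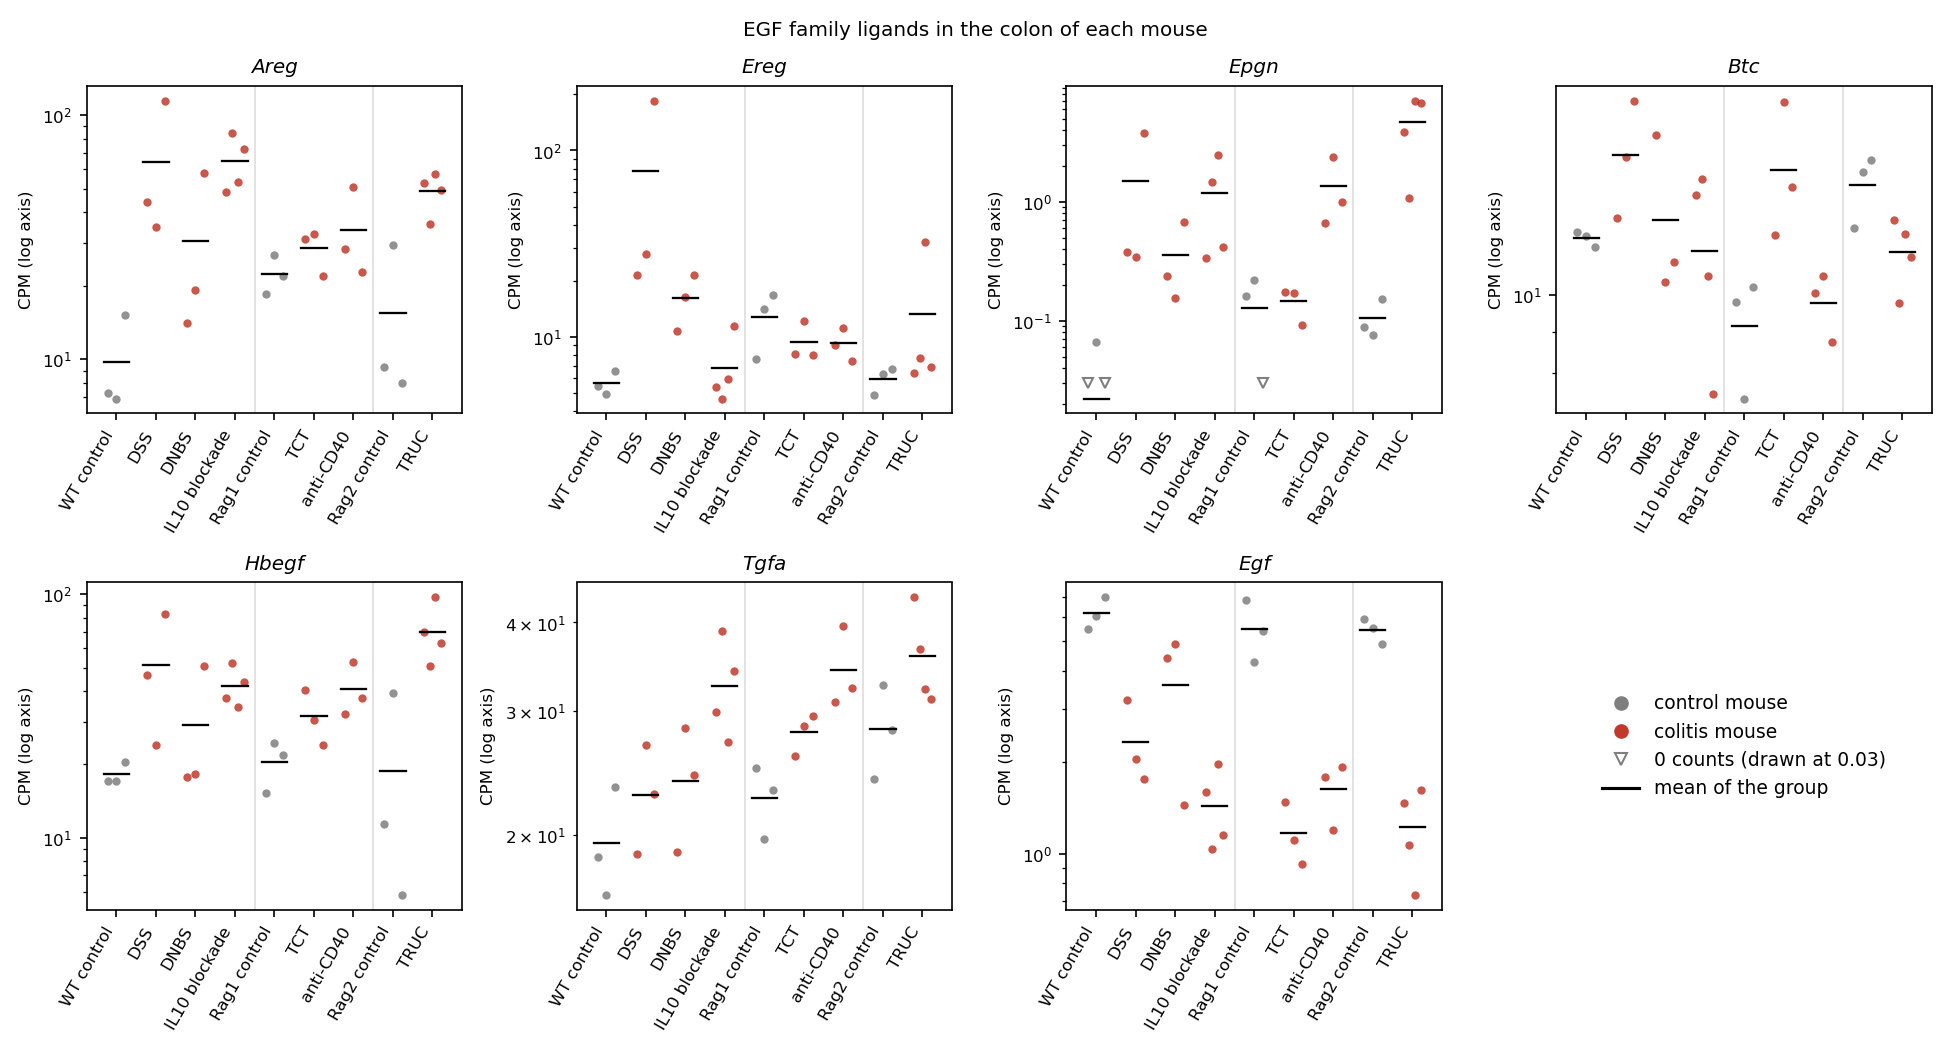
CPM of the 7 ligands in each mouse (points, log axes that differ between panels) by group, with grey for controls, red for colitis models and a black line for the group mean. Open triangles mark mice with no count, and thin vertical lines separate the 3 sets of models and their controls. Areg rises in DSS, IL-10 blockade and TRUC, the Ereg mean of DSS is carried by mouse 8 at 184 CPM, and the Egf points of every model lie below those of its controls.

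Hbegf, on chromosome 18, the gene of heparin-binding EGF-like growth factor, a ligand of EGFR and ERBB4 also made by macrophages, was raised in the same 3 models as Areg. TRUC mice had 69.7, 50.9, 97.1 and 63.1 CPM, and the Rag2 controls 11.3, 39.4 and 5.81 CPM. The groups did not overlap, and Rag2 control mouse 2 was again the highest control. The log2 fold change was 1.89 (SE 0.48, edgeR adjusted p = 0.00267), and 3.04 without that mouse (adjusted p = 9.59e-05). DSS mice had 46.7, 24.1 and 82.8 CPM, IL-10 blockade mice 37.4, 52.1, 34.6 and 43.6 CPM, and the WT controls 17.1, 17.2 and 20.5 CPM. These groups did not overlap with the controls either. The rises in DSS (log2 fold change 1.49, SE 0.49, edgeR adjusted p = 0.0229) and IL-10 blockade (1.20, SE 0.47, adjusted p = 0.0356) were near the threshold, and both lost their call without WT control mouse 1 or 2. That in DSS also did so without DSS mouse 8 (0.96, adjusted p = 0.184), and that in IL-10 blockade without WT control mouse 4 or IL-10 blockade mouse 2 or 4, with edgeR adjusted p up to 0.096. Anti-CD40 mice (32.3, 52.6 and 37.4 CPM) lay above the Rag1 controls (15.3, 24.4 and 21.8 CPM), with a log2 fold change of 0.99 that was not called (SE 0.49, edgeR adjusted p = 0.153). TCT (24.0 to 40.2 CPM) and DNBS (17.7 to 50.7 CPM) overlapped their controls. Macrophage markers (Cd68, Adgre1, Csf1r, Cd14 and Mrc1) summed to 676 to 865 CPM in TRUC, 490 to 1423 CPM in DSS and 282 to 534 CPM in IL-10 blockade, and to 153 to 175 CPM in the Rag2 and 184 to 238 CPM in the WT controls, with 5, 5 and 1 of 5 called higher and, in IL-10 blockade, 1 called lower. In TCT and anti-CD40, where Hbegf was not called, these markers summed to 477 to 559 and 558 to 613 CPM. The Rag1 controls had 133 to 183 CPM, and 4 of 5 were called higher in TCT and 1 in anti-CD40. In DNBS they summed to 286 to 313 CPM, with 0 called. The part of these markers in the rise of Hbegf was not tested.

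Tgfa, which encodes transforming growth factor alpha, the EGFR ligand made by surface epithelium, changed little. It rose in IL-10 blockade (29.8, 39.0, 27.1 and 34.2 CPM against 18.6, 16.4 and 23.4 CPM, log2 fold change 0.74, SE 0.17, edgeR adjusted p = 0.00092) and in anti-CD40 (30.9, 39.5 and 32.3 CPM against 24.9, 19.7 and 23.1 CPM, 0.60, SE 0.18, adjusted p = 0.0186). In both models no mouse overlapped with the controls. The anti-CD40 call was lost without anti-CD40 mouse 7 (0.49, edgeR adjusted p = 0.119) or Rag1 control mouse 3 (0.51, adjusted p = 0.0929), and against the Rag2 controls (0.28, adjusted p = 0.264). In the other 4 models the log2 fold change of Tgfa was between 0.23 and 0.34, and none was called. Btc, which encodes betacellulin, a ligand of EGFR and ERBB4, was called in TCT only, at 11.9, 17.3 and 13.6 CPM against 9.80, 7.43 and 10.2 CPM in the Rag1 controls (log2 fold change 0.64, SE 0.21, edgeR adjusted p = 0.02). The groups did not overlap, but the call was lost without TCT mouse 3 (0.49, edgeR adjusted p = 0.121) or Rag1 control mouse 3 (0.52, adjusted p = 0.107). Against the WT controls, at 11.5 to 12.0 CPM, the log2 fold change of Btc in TCT was 0.28 (SE 0.20, edgeR adjusted p = 0.305). Btc was called in none of the models in which its neighbours Areg, Ereg and Epgn were, and its log2 fold change lay between -0.28 and 0.34 in the other 5 models.

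Egf itself, the founding ligand of the family, was low in colon and fell in 5 of the 6 models. The controls had 5.48, 6.06 and 6.97 CPM (WT), 6.81, 4.27 and 5.42 CPM (Rag1) and 5.93, 5.51 and 4.91 CPM (Rag2). Levels were 1.48, 1.11 and 0.926 CPM in TCT, 1.47, 1.07, 0.733 and 1.63 CPM in TRUC and 1.60, 1.04, 1.97 and 1.15 CPM in IL-10 blockade. They were 1.78, 1.20 and 1.94 CPM in anti-CD40 and 3.21, 2.05 and 1.76 CPM in DSS. In DNBS, mice 11 and 14 had 4.41 and 4.88 CPM and mouse 16 had 1.45 CPM. Every colitis mouse lay below every mouse of its own control group, in all 6 models, and the colitis libraries held 8 to 74 counts of Egf each. The level was 4.64-fold lower in TCT (log2 fold change -2.21, SE 0.37, edgeR adjusted p = 6.65e-05), 4.38-fold lower in TRUC (-2.13, SE 0.33, adjusted p = 2.92e-05) and 4.22-fold lower in IL-10 blockade (-2.08, SE 0.33, adjusted p = 2.21e-05). It was 3.33-fold lower in anti-CD40 (-1.73, SE 0.35, edgeR adjusted p = 0.0015) and 2.61-fold lower in DSS (-1.39, SE 0.34, adjusted p = 0.0029). These 5 calls held with each mouse left out and with every other scaling, filter and tool tried. In DNBS the log2 fold change of -0.77 was not called (SE 0.33, edgeR adjusted p = 0.149), and it was -0.40 with neither DNBS mouse 16 nor DSS mouse 8 in the fit. Egf was lower in IL-10 blockade than in DNBS (-1.30, SE 0.33, edgeR adjusted p = 0.00469). Exons of Egf overlap those of 2 antisense genes, Gm42697 and 6330410L21Rik, over 607 and 500 bases. The mean counts of these genes were 0.069 and 0.172. Since the strand setting of the counting is not given, these counts do not show how many reads of Egf the overlap affects.

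Among the receptors, Egfr was raised where Areg and Hbegf were. It was at 55.7, 66.9 and 120 CPM in DSS and 55.1, 64.1, 53.2 and 77.6 CPM in IL-10 blockade, against 44.8, 49.7 and 37.9 CPM in the WT controls. TRUC mice had 76.5, 78.6, 67.2 and 55.5 CPM and the Rag2 controls 47.0, 39.5 and 44.2 CPM. No colitis mouse of these models overlapped with its controls. The rises were 1.83-fold in DSS (log2 fold change 0.87, SE 0.20, edgeR adjusted p = 0.00193), 1.59-fold in TRUC (0.67, SE 0.19, adjusted p = 0.00631) and 1.41-fold in IL-10 blockade (0.50, SE 0.19, adjusted p = 0.031). The DSS value was 0.47 without mouse 8, still called (edgeR adjusted p = 0.0443), but missed the threshold when DNBS mouse 16 was left out as well (0.46, adjusted p = 0.051) and when the 2 groups were fitted alone (adjusted p = 0.0649). That of IL-10 blockade was lost without WT control mouse 1 or 4 or IL-10 blockade mouse 2 or 4, with edgeR adjusted p up to 0.131, under upper quartile scaling (adjusted p = 0.13) and with the replicate block. DNBS (56.6, 72.9 and 63.5 CPM) and TCT (55.0, 68.6 and 55.2 CPM, beside 45.1 to 48.8 CPM in the Rag1 controls) also lay above their controls in every mouse, with log2 fold changes of 0.54 (SE 0.20, edgeR adjusted p = 0.102) and 0.35 (SE 0.20, adjusted p = 0.196). Anti-CD40 did not separate (43.5 to 52.6 CPM).

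Erbb2 and Erbb3, the partners of EGFR, fell together in DSS and TRUC. Erbb2 was at 67.5, 122 and 54.5 CPM in DSS against 235, 229 and 242 CPM in the WT controls, and at 140, 125, 112 and 143 CPM in TRUC against 268, 339 and 214 CPM in the Rag2 controls. All 7 colitis mice lay below their controls. The falls were 2.90-fold in DSS (log2 fold change -1.54, SE 0.26, edgeR adjusted p = 0.000106) and 2.11-fold in TRUC (-1.08, SE 0.23, adjusted p = 0.000768), and both calls held with each mouse left out. Erbb3 was at 164, 237 and 107 CPM in DSS against 400, 419 and 387 CPM, and at 292, 270, 216 and 262 CPM in TRUC against 452, 537 and 336 CPM. Again no mouse overlapped with its controls. Its log2 fold change was -1.25 in DSS (SE 0.27, edgeR adjusted p = 0.00111) and -0.76 in TRUC (SE 0.25, adjusted p = 0.0147), the latter not called without Rag2 control mouse 2 (-0.60, adjusted p = 0.0878). In IL-10 blockade Erbb2 was at 183, 204, 170 and 263 CPM (log2 fold change -0.20, SE 0.23, edgeR adjusted p = 0.486) and Erbb3 at 252, 294, 224 and 360 CPM (-0.51, SE 0.25, adjusted p = 0.0855).

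In TCT, mouse 1 had 206 CPM of Erbb2 and 364 CPM of Erbb3, near the Rag1 controls (225 to 274 and 318 to 356 CPM), and mice 3 and 5 had 146 and 111 CPM of Erbb2 and 178 and 163 CPM of Erbb3. The log2 fold changes of -0.66 for Erbb2 (SE 0.25, edgeR adjusted p = 0.0522) and -0.54 for Erbb3 (SE 0.27, adjusted p = 0.133) were not called, and without TCT mouse 1 both were (-0.92, adjusted p = 0.0136, and -1.0, adjusted p = 0.00496). In anti-CD40 neither receptor differed detectably (0.07 and 0.18, SE 0.25 and 0.27, edgeR adjusted p = 0.884 and 0.672). DNBS mice lay below the WT controls for both, at 174 to 228 and 257 to 329 CPM, with no call (-0.25 and -0.47, edgeR adjusted p = 0.562 and 0.285).

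The fall of Erbb2 and Erbb3 was set beside markers of colonic epithelium, where both are mainly found. The 8 markers (Epcam, Cdh1, Vil1, Krt8, Krt18, Krt19, Krt20 and Cldn7) summed to 7206 to 8822 CPM in DSS against 9063 to 10863 CPM in the WT controls, with 3 called lower and 1 higher. In TRUC they summed to 14794 to 16030 CPM against 11450 to 12402 CPM in the Rag2 controls, with 5 called higher and 0 lower. Markers of the crypt base (Lgr5, Ascl2, Smoc2, Axin2 and Olfm4) summed to 35.1 to 67.5 CPM in DSS against 76.2 to 85.6 CPM in the WT controls, and to 50.3 to 57.9 CPM in TRUC against 78.5 to 87.6 CPM in the Rag2 controls. Of these 5, 2 were called lower and 1, Olfm4, higher in DSS and in TRUC. The crypt base markers also summed lower in anti-CD40, at 64.4 to 86.7 CPM against 97.9 to 124 CPM in the Rag1 controls. In anti-CD40 Erbb2 and Erbb3 did not differ detectably. The same markers summed to 65.8 to 75.8 CPM in TCT. In IL-10 blockade, at 42.7 to 76.8 CPM, they overlapped the WT controls, and in DNBS, at 93.0 to 139 CPM, they lay above them. The part of either list in the fall of Erbb2 and Erbb3 was not tested. Over the 29 mice, log2 CPM of Erbb2 and Erbb3 had a Pearson correlation of 0.93, given as a description over libraries that also share depth and condition.

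**Figure D3:**
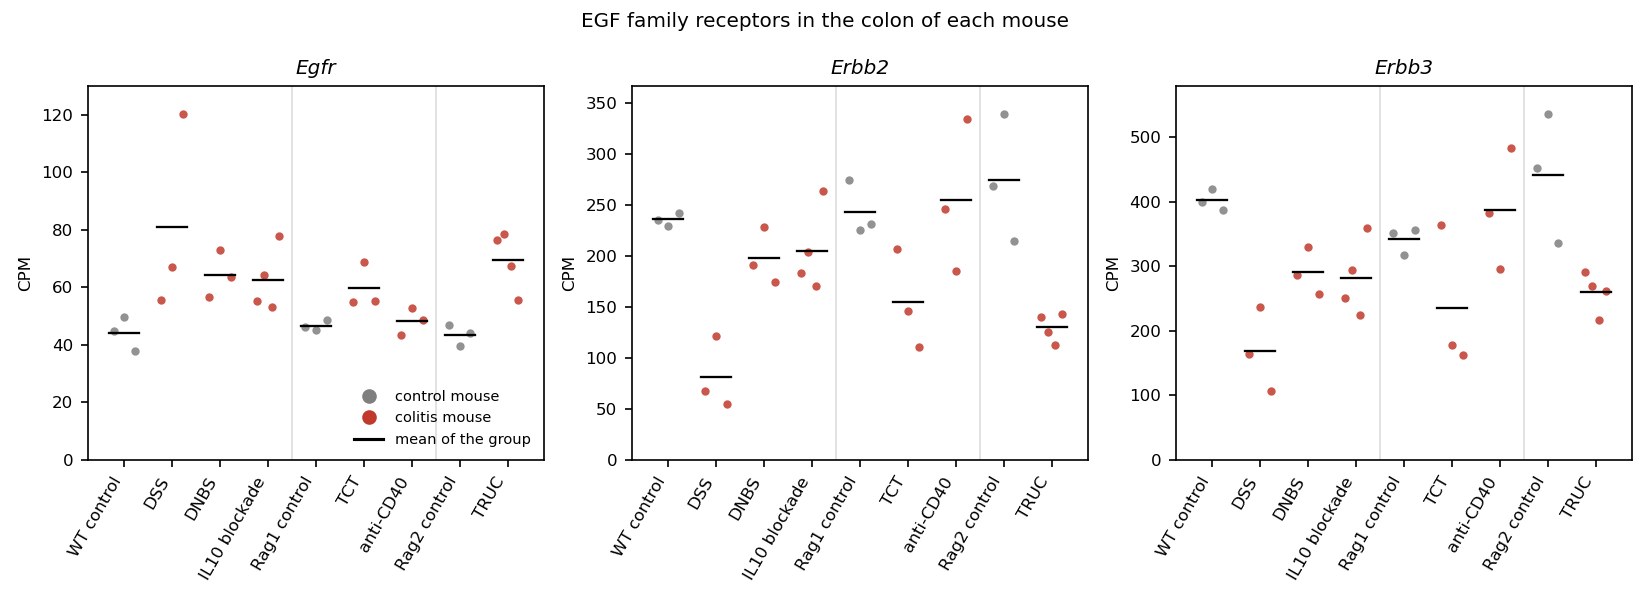
CPM of the 3 receptors in each mouse (points) by group on axes that start at 0, with grey for controls, red for colitis models and a black line for the group mean. Egfr is above, and Erbb2 and Erbb3 are below, their controls in every DSS and TRUC mouse, and TCT mouse 1 (206 and 364 CPM) stands apart from the other 2 TCT mice for Erbb2 and Erbb3.

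Compared per length, as FPKM computed from CPM and the summed exon length in kilobases, Areg was the most abundant ligand in every group and Erbb3 the most abundant receptor. In the WT controls the mean FPKM was 66.8 for Erbb3, 45.2 for Erbb2 and 3.90 for Egfr, and in DSS 28.2, 15.6 and 7.15. The 7 ligands summed to 19.4 ± 4.94 FPKM in the WT controls, 26.1 ± 14.3 in the Rag2 controls and 31.9 ± 4.49 in the Rag1 controls (SD, n = 3 each). They summed to 90.3 ± 65.2 in DSS, 71.8 ± 16.2 in IL-10 blockade, 68.7 ± 15 in TRUC, 46.9 ± 15.9 in anti-CD40, 41.8 ± 24.5 in DNBS and 40 ± 6.43 in TCT (SD, n = 4 in IL-10 blockade and TRUC and 3 in the others). Areg made up 40.2% ± 8.29 of this sum in the WT controls, 59.9% ± 3.34 in DSS and 73.6% ± 2.82 in IL-10 blockade. Its share was 45.5% ± 10.0 in the Rag2 controls and 58.8% ± 3.13 in TRUC, and it was alike in the Rag1 controls (57.7% ± 3.63), TCT (58.6% ± 2.79) and anti-CD40 (58.3% ± 5.92). Ereg held 16.7% ± 9.28 of the sum in DSS, with 27.0% in mouse 8, and 2.35% ± 0.924 in IL-10 blockade. Egf fell from 2.89% ± 0.428 in the WT controls to 0.322% ± 0.206 in DSS and 0.192% ± 0.0911 in IL-10 blockade. These shares are descriptions, and those of genes that did not change fall as Areg rises.

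**Figure D4:**
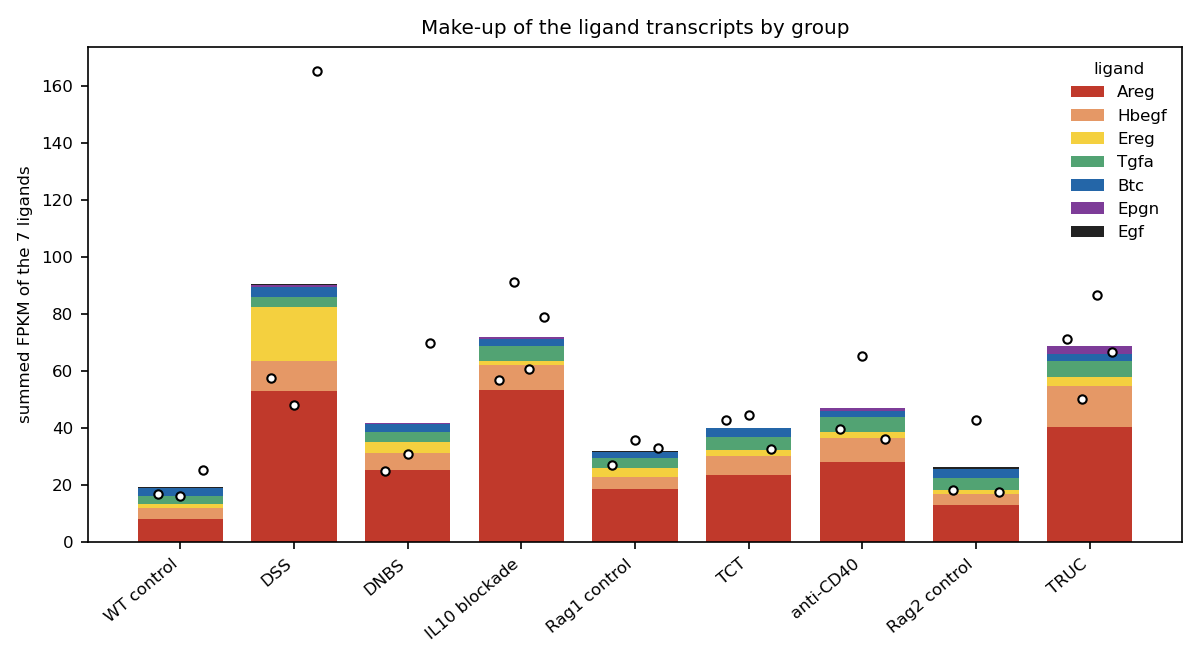
Mean FPKM of the 7 ligands stacked by group (bars, from 0), with the summed FPKM of each mouse as open points. Areg is the largest segment in every group, the Ereg segment is largest in DSS, and the DSS bar of 90.3 FPKM stands above the points of mice 5 and 6 because mouse 8 reached 165 FPKM.

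The size of the change differed between the 6 models for 7 of the 10 members in an edgeR quasi-likelihood F test of equal contrasts, beside 60.5% of all genes tested. These were Ereg (adjusted p = 0.000125), Erbb2 (0.00024), Erbb3 (0.0124), Egf (0.0157), Btc (0.0257), Areg (0.0322) and Epgn (0.0404), and the adjusted p was 0.0503 for Tgfa, 0.117 for Egfr and 0.335 for Hbegf. Models that share a strain and controls by their labels were also compared directly. Between IL-10 blockade and DSS, 4 members differed, beside 49.8% of all genes. Besides Ereg, Erbb2 (log2 difference 1.34, SE 0.25, edgeR adjusted p = 0.000101), Erbb3 (0.74, SE 0.25, adjusted p = 0.0189) and Tgfa (0.51, SE 0.17, adjusted p = 0.0144) were higher in IL-10 blockade. The Erbb3 difference was lost without DSS mouse 8 (0.49, edgeR adjusted p = 0.134) or IL-10 blockade mouse 4 (0.60, adjusted p = 0.0592), and that of Tgfa without DSS mouse 5 (0.39, adjusted p = 0.0905) or IL-10 blockade mouse 2 (0.41, adjusted p = 0.0554). Between IL-10 blockade and DNBS, 2 members differed, beside 33.9% of all genes, Egf as given above and Tgfa (0.45, SE 0.17, edgeR adjusted p = 0.0423), the latter lost without IL-10 blockade mouse 2 or 4 or DNBS mouse 11 or 16, with an adjusted p up to 0.267. Without DNBS mouse 16, Areg was also called higher in IL-10 blockade (1.94, edgeR adjusted p = 0.00508). With DSS mouse 8 left out as well, so were Hbegf (1.20, adjusted p = 0.041) and Epgn (2.48, adjusted p = 0.0347). Between DSS and DNBS, 3 members differed, beside 22.6% of all genes. Ereg was higher in DSS (2.27, SE 0.63, edgeR adjusted p = 0.0116), and without DSS mouse 8 the difference was 0.61 and not called (adjusted p = 0.471). Erbb2 was lower in DSS (-1.28, SE 0.26, edgeR adjusted p = 0.00138) with each mouse left out, and Erbb3 was lower (-0.78, SE 0.27, adjusted p = 0.0382), which was lost without DSS mouse 5 or 8 or DNBS mouse 11 or 14, with an adjusted p up to 0.227. Between TCT and anti-CD40, 2 members differed, beside 18.4% of all genes, both close to the threshold. TCT held Rag1 reads and anti-CD40 Rag2 reads, as given above, so this comparison may also be one of genotypes. Erbb2 was lower in TCT (-0.72, SE 0.25, edgeR adjusted p = 0.0479) and so was Epgn (adjusted p = 0.0498, with 5 counts in TCT and 49 in anti-CD40). Each of these calls was lost without at least 4 of the 6 mice in turn, with edgeR adjusted p up to 0.234.

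Against the WT controls, 4 members were called in TCT, 2 higher and 2 lower, beside 16.9% and 13.8% of all genes. Besides Areg, Tgfa was higher (log2 fold change 0.52, SE 0.18, edgeR adjusted p = 0.0299), and Egf (-2.38, SE 0.37, adjusted p = 6.53e-05) and Erbb3 (-0.78, SE 0.27, adjusted p = 0.0312) were lower. The log2 fold changes of Ereg (0.74, edgeR adjusted p = 0.403), Hbegf (0.79, adjusted p = 0.229), Btc (0.28, adjusted p = 0.305), Egfr (0.43, adjusted p = 0.107) and Erbb2 (-0.61, adjusted p = 0.0691) were not called, and neither was Epgn, with 5 counts in TCT and 1 in the WT controls (adjusted p = 0.419). Egf was thus called lower, and Egfr, Erbb2, Ereg, Hbegf and Epgn were not called, against either control group.

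The rest of the pathway was read from lists of other family genes, sheddases, feedback and target genes, and adaptors and kinases. Of the other family genes, Nrg1, which encodes neuregulin 1, the ligand of ERBB3 and ERBB4 made by stroma, rose in 4 models. It was at 14.2, 27.7 and 15.6 CPM in TCT against 2.19, 1.55 and 2.67 CPM in the Rag1 controls (log2 fold change 3.17, SE 0.39, edgeR adjusted p = 1.46e-06), the largest rise in TCT among the family genes tested. Against the WT controls it was 2.42 (SE 0.37, edgeR adjusted p = 6.18e-05). DSS mice had 11.2, 18.4 and 45.6 CPM and IL-10 blockade mice 6.90 to 9.35 CPM, against 3.20 to 3.96 CPM in the WT controls (2.81, SE 0.38, edgeR adjusted p = 1.1e-05, and 1.13, SE 0.35, adjusted p = 0.00976). Without DSS mouse 8, at 45.6 CPM, the value in DSS was 2.05 (edgeR adjusted p = 4.1e-05). TRUC mice had 10.6 to 13.9 CPM and the Rag2 controls 2.29 to 3.55 CPM (2.17, SE 0.37, edgeR adjusted p = 6.81e-05). None of these 4 models overlapped with its controls, so the ligand of ERBB3 was higher where Erbb3 itself was lower in DSS and TRUC. In DNBS and anti-CD40 the log2 fold changes of Nrg1 were 0.72 and 0.45 (edgeR adjusted p = 0.233 and 0.463). Erbb4, the receptor shared by Nrg1, Ereg, Hbegf and Btc, had at most 1 count in every library and was not tested.

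Of 8 genes for ligand release, in the list of ADAM proteases, their iRhom partners and the inhibitor Timp3, 5 rose and 1 fell in TRUC, 6 rose in DSS, 2 rose in DNBS, 3 rose and 1 fell in IL-10 blockade, 4 rose in TCT, and 1 rose and 1 fell in anti-CD40. These are 62.5%, 75%, 25%, 37.5%, 50% and 12.5% of the 8 higher in that order, beside 22.4%, 17.7%, 3.95%, 27.2%, 16.1% and 10.9% of all genes, and in IL-10 blockade and anti-CD40 the shares lay near those of all genes. Adam10 was the member called higher in every model, with log2 fold changes from 0.36 in DSS (SE 0.13, edgeR adjusted p = 0.0341) to 0.82 in IL-10 blockade (SE 0.12, adjusted p = 1.46e-05). Its call was lost in DSS without DSS mouse 6 or 8 or WT control mouse 1 or 2, in DNBS without DNBS mouse 14 or 16 or WT control mouse 1 or 2, and in TCT without Rag1 control mouse 2 or 3, with edgeR adjusted p up to 0.116. It was at 115, 124 and 130 CPM in the WT controls and 206, 204, 179 and 277 CPM in IL-10 blockade. Adam17, the main protease for Areg, Ereg, Epgn, Hbegf and Tgfa, rose in TCT (84.6 to 92.9 CPM against 45.7 to 49.0 CPM, log2 fold change 0.90, SE 0.15, edgeR adjusted p = 5.48e-05), TRUC (70.2 to 80.9 against 44.1 to 49.7 CPM, 0.68, SE 0.14, adjusted p = 0.000456) and DSS (72.1, 65.0 and 119 CPM against 53.7 to 61.2 CPM, 0.55, SE 0.15, adjusted p = 0.00585). The rise in DSS rested on mouse 8, without which it was 0.24 and not called (edgeR adjusted p = 0.125). In TCT it was 0.59 against the WT controls (SE 0.15, edgeR adjusted p = 0.00423). In anti-CD40 the log2 fold change of Adam17 was 0.40 (edgeR adjusted p = 0.0517, and 0.043 without anti-CD40 mouse 8), in DNBS 0.27 (adjusted p = 0.266) and in IL-10 blockade 0.25 (adjusted p = 0.136).

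Of the 22 feedback and target genes, 10 rose and 4 fell in DSS, 6 rose and 6 fell in TRUC, 7 rose and 7 fell in IL-10 blockade, 0 rose and 7 fell in TCT, 0 rose and 6 fell in anti-CD40, and 0 rose and 1 fell in DNBS. In TRUC 27.3% each way stood near 22.4% higher and 23.4% lower among all genes, and in IL-10 blockade 31.8% each way near 27.2% and 26.1%. In DSS 45.5% were higher, beside 17.7% of all genes, and in TCT and anti-CD40 31.8% and 27.3% were lower, beside 14% and 10.7%. In DNBS 4.55% were lower, beside 2.21% of all genes. The shares and the median in DSS include mouse 8 and were not computed without it. Over the 22 the median log2 fold change came to 0.49 in DSS, 0.25 in DNBS, 0.04 in IL-10 blockade, 0.01 in TRUC, -0.16 in anti-CD40 and -0.21 in TCT. Cbl, the ubiquitin ligase that sends activated EGFR to degradation, was called lower in every model, with log2 fold changes from -0.49 in TRUC (SE 0.14, edgeR adjusted p = 0.00609) to -1.0 in IL-10 blockade (SE 0.14, adjusted p = 5.03e-06). It was at 119, 120 and 113 CPM in the WT controls and 52.6, 57.1, 63.4 and 62.6 CPM in IL-10 blockade, without overlap. In DNBS the call of Cbl was lost without DNBS mouse 14 or 16 or WT control mouse 1 or 2 (edgeR adjusted p up to 0.105). Lrig1, an inhibitor of ERBB receptors that marks crypt stem cells, fell in TRUC (99.8 to 131 CPM against 173 to 195 CPM, log2 fold change -0.72, SE 0.17, edgeR adjusted p = 0.00122), TCT (-0.56, SE 0.18, adjusted p = 0.0198) and IL-10 blockade (-0.44, SE 0.17, adjusted p = 0.0281), and was not called in the other 3 models. Its call in TCT was lost against the WT controls (-0.43, edgeR adjusted p = 0.0705) and without TCT mouse 1 or 5 or Rag1 control mouse 2, and that in IL-10 blockade without IL-10 blockade mouse 4 (-0.27, adjusted p = 0.0752) or any of the 3 WT controls. Errfi1, an inducible inhibitor of EGFR, was not called in any model. It was at 221 CPM in DSS mouse 8 beside 72.1 and 69.3 CPM in the other DSS mice, at 145 CPM in TRUC mouse 4 beside 64.4 to 72.3 CPM in the other TRUC mice, and at 140 CPM in Rag2 control mouse 2 beside 64.4 and 65.6 CPM in the others. The first and second of these mice were also the highest of their groups for Ereg, and all 3 were the highest of their groups for Areg and Hbegf. The mouse highest for Errfi1 was also highest for Areg in the WT controls (mouse 4) and DNBS (mouse 16). It was not in the Rag1 controls (mouse 4, Errfi1 134 and Areg 21.9 CPM), IL-10 blockade (mouse 4, 108 and 72.6 CPM) or TCT (mouse 1, 89.8 and 31.2 CPM). In anti-CD40, mouse 8 had the highest Errfi1 (61.0 CPM) and the lowest Areg (22.8 CPM). Of the 15 adaptors and kinases, 5 rose and 3 fell in TRUC, 3 rose and 3 fell in DSS, 2 rose in DNBS, 6 rose and 4 fell in IL-10 blockade, 3 rose and 2 fell in TCT, and 4 rose and 1 fell in anti-CD40. Their shares of the 15 stood near those of all genes in DSS, at 20% each way beside 17.7% and 16.3%, and in TCT, at 20% and 13.3% beside 16.1% and 14%. The higher and lower shares were 33.3% and 20% in TRUC, beside 22.4% and 23.4%, and 40% and 26.7% in IL-10 blockade, beside 27.2% and 26.1%. In anti-CD40 they were 26.7% and 6.67%, beside 10.9% and 10.7%, and in DNBS 13.3% were higher, beside 3.95%. Nras, a RAS GTPase, was called higher in every model, from 0.55 on the log2 scale in DNBS (SE 0.15, edgeR adjusted p = 0.0323) to 0.86 in IL-10 blockade (SE 0.14, adjusted p = 4.02e-05). Its call was lost in DSS without mouse 8 (0.37, edgeR adjusted p = 0.0762) and in DNBS without DNBS mouse 14 or 16 or any of the 3 WT controls (adjusted p up to 0.131).

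Over the 29 mice, Areg and Hbegf had the closest levels among the ligands (Pearson correlation of log2 CPM 0.87), and Areg and Egf ran opposite (-0.74). Btc had a correlation of at most 0.23 in size with each other ligand and with Egfr, and -0.45 with both Erbb2 and Erbb3. For the members called in at least 4 of the 6 models, the 3 genes of closest pattern among all genes tested were Tec (0.855), Ext1 (0.845) and Cd14 (0.844) for Epgn, and Pbld1 (0.937), Coq8a (0.934) and Gpt2 (0.931) for Egf. These correlations describe libraries that share groups and depth and carry no test.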

How the data were processed

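Poly(A)-selected RNA of colon segments from 29 mice, 1 library per mouse, was sequenced. The authors deposited a table of raw read counts per Ensembl gene, and the submitters' processing notes name Trimmomatic, HISAT2, HTSeq and GRCm38, with no versions or strand setting given in the sources used here. Totals ran from 10725564 to 14977094 counts, and intervals and floors cover counting error only. The 92 spike-in rows held no counts. The 18616 of 54532 genes whose counts averaged 3 or more over the mice were tested in edgeR 4.0.16 (R 4.3.3) by quasi-likelihood F tests in 1 model of the 9 groups, after TMM scaling, and p-values were adjusted across them by the Benjamini-Hochberg method. Standard errors were derived from the estimate and its F statistic. The code was tested on simulated data. DESeq2 1.42.0, other scalings, filters, thresholds, control groups and leaving out each mouse were alternatives. Members and gene lists were chosen with earlier results of these data known. All 10 members were named. List genes were named if called in 1 direction in all 6 models, or if they were Erbb4, Nrg1, Adam17, Lrig1 or Errfi1, and similar genes for members called in at least 4. Replicate numbers shared by TRUC and Rag2 control, and by IL-10 blockade and WT control, come from the mouse numbers in the labels. Gene positions are from GENCODE M21. Python 3.11.15, pandas 2.3.3 and matplotlib 3.10.9 were also used.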

Additional observations from a re-analysis of the deposited data

Results flagged for a closer look

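Ereg in TRUC mouse 4 stood at 32.1 CPM, apart from the other 3 TRUC mice at 6.41 to 7.74 CPM by Dixon's criterion for 4 samples. Of 20 groups of 4 mice tested, 1 was marked so, and chance marks about 1 in 20. The count columns of TRUC mice 4 and 5 carry other names than their titles, and those of TRUC mice 2 and 3 do not.

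The size of the change from control differed between the 6 models by an edgeR quasi-likelihood F test for 7 members, beside 60.5% of all genes. For Ereg (adjusted p = 0.000125), Erbb2 (0.00024) and Erbb3 (0.0124) the call held with each of the 29 mice left out in turn. It held in 28 of these 29 fits for Btc (adjusted p = 0.0257), 27 for Egf (0.0157), 22 for Areg (0.0322) and 17 for Epgn (0.0404). Leaving out DNBS mouse 11 or 14 ended the call for Egf, with an adjusted p up to 0.0854. The 6 effects, some of which share control mice, enter this test, and TCT and anti-CD40 enter it against the libraries labelled Rag1 control.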

How the results depend on the processing

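No called member turned direction under any alternative. Of 670 member values under other settings, 611 kept their side of the threshold, 29 lost and 30 gained a call, and of 640 with a mouse left out 577 kept it, 46 lost and 17 gained one. Members called in anti-CD40 went from 3 to 1 at an adjusted p under 0.01 and ran from 1 to 3 with a mouse left out. In DNBS the 0 became 3 by DESeq2, 1 by edgeR on the 2 groups alone, 1 without a filter and 0 to 1 with a mouse left out. In DSS the 8 became 5 with neither DSS mouse 8 nor DNBS mouse 16, a choice made after seeing the data, and 6 to 8 with a mouse left out. In TCT the 2 became 1 at an adjusted p under 0.01, 4 by DESeq2, 4 against the WT controls and 1 to 4 with a mouse left out. TRUC ran from 6 to 7 and IL-10 blockade from 4 to 6 (7 and 6 with all mice). Between DSS and DNBS the 3 became 1 with neither of those mice and 1 to 6 with a mouse left out, between IL-10 blockade and DNBS the 2 became 1 with filterByExpr, 1 without a filter, 1 by upper quartile scaling, 4 with neither mouse and 1 to 2 with a mouse left out, and between TCT and anti-CD40 the 2 became 1 by upper quartile scaling and 0 to 3 with a mouse left out. The cause was not tested. The named genes of the pathway lists were refitted with each mouse left out, a choice made after seeing the data, and the calls lost stand beside their values. Besides those given above, single calls lost were Btc in TCT with the 2 groups fitted alone and, under upper quartile scaling, Hbegf in IL-10 blockade, Erbb3 in DSS against DNBS and in IL-10 blockade against DSS. Over all genes, DNBS had 1148 calls, 1877 by DESeq2, 628 by edgeR on the 2 groups alone, 221 at an adjusted p under 0.01 and 759 with neither mouse, DSS had 6336, 3869 at an adjusted p under 0.01 and 4206 with neither mouse, DSS against DNBS 4207 and 1565 with neither mouse, and TCT and anti-CD40 5601 and 4015, with 3513 and 1852 at an adjusted p under 0.01. DESeq2 called 5173 of 18469 genes in TCT, and DNBS without a filter had 1041 of 34062. IL-10 blockade against DNBS had 6318 calls, 7398 with neither mouse and 6547 by upper quartile scaling. It had 6381 of 17427 genes with filterByExpr and 5506 of 34062 without a filter. TCT against anti-CD40 had 3432, and 3349 by upper quartile scaling. With the mouse number as a replicate block, TRUC had 8 members called, beside 6929 of 18439 genes, and IL-10 blockade 5, beside 7552 of 18596. Mice of the same number deviated together with correlations of -0.0518 to 0.0556, so the numbers were not read as pairs. With 3 or 4 mice a group, and 0 to 3 counts of Epgn per control library, small changes were not detectable.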
